A study of Mus musculus with 4 samples.

Results

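Sterol and fatty acid synthesis was followed through 33 genes, taken by symbol from the deposited expression table. They are the enzymes of the cholesterol pathway, the SREBP regulators with 1 sterol carrier, and the enzymes that make, elongate and desaturate fatty acids. Rows were found for 32 of them, out of 16442 genes in the table. Scd1 is not analysed here. Poly(A) RNA was sequenced from leukaemia stem cells, the cells that can restart a leukaemia, isolated from bone marrow of leukaemic C57BL/6 mice. The wild-type group (WT) had 2 libraries, and the group labelled as a knockout (KO) had 2. The knocked-out gene is Rreb1, a zinc-finger transcription factor that acts downstream of RAS signalling. The labels call the 2 libraries of each genotype biological replicates. They name no oncogene, no deleted exon, no Cre driver and no age, and do not say whether animals were pooled. They also disagree in places: the genotype entry of the second KO library reads Rreb2, and the extraction protocol mentions TAMs. Groups were therefore taken from the titles.

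The level of Rreb1 did not separate the genotypes. Rreb1 was at 5.24 and 6.57 FPKM in WT and at 6.10 and 6.93 FPKM in KO, where FPKM is reads scaled to exonic length in kilobases and to the library's total of assigned reads. Its difference on the log2(FPKM + 1) scale was 0.13 (95% limits −0.20 to 0.45, limma adjusted p = 0.616). A level summed over every exon can miss a small deletion, so WT and KO below mean the libraries so labelled. Self-renewal and progenitor genes were present in all 4 libraries, with Hoxa9 at 28.9 to 35.8 FPKM and Meis1 at 10.8 to 11.9. Kit, a stem cell factor receptor, was at 3.65 and 4.25 FPKM in WT and 7.36 and 7.15 in KO (limma adjusted p = 0.0512; 0.00066 by limma-voom). Cd34, a progenitor surface protein, was at 68.3 and 71.5 FPKM in WT and 50.5 and 49.8 in KO (limma adjusted p = 0.065; 0.00817 by limma-voom).

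Cholesterol is built from acetyl-CoA through mevalonate to squalene, which is closed into a ring and trimmed to cholesterol. Fatty acids are built from the same acetyl-CoA by carboxylation and chain extension, and are then elongated and desaturated. Both sets of enzymes are under the SREBP transcription factors, which SCAP carries from the endoplasmic reticulum for activation when sterols are low and which INSIG proteins hold back when sterols are high. SREBPs bind sterol regulatory elements and E-boxes, usually beside a CCAAT box bound by NF-Y. Dividing leukaemia cells use the products for new membranes and for the lipid anchors of RAS-family proteins.

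RefSeq promoter windows (GRCm38.p6) were at hand for 26 of the 32 genes, as 33 windows since some genes have several starts. They were read over the 250 bases before the start and searched on both strands. The sterol regulatory element TCACNCCAC was found in 1 of the 33 windows, that of Hmgcs1, against 0.987% of the 10636 windows of tested genes. With its last base left free (TCACNCCA) it was found in 3, adding Srebf2 and Msmo1, against 3.40% of windows. The E-box CACGTG was found in 6 windows, those of Dhcr7, Elovl5, Hsd17b7, Insig1, Sc5d and Scap, against 8.57%. A CCAAT box, in either orientation, was found in 22 of the 33 windows, belonging to 21 of the 26 genes, against 36.2%. These are letter matches in short windows and not binding sites. Shown here are the upstream bases, outside any annotated gene, of a target with the full element (Hmgcs1, chr13:119690101-119690350) and of the gene of the sterol-sensing factor itself (Srebf2, chr15:82147019-82147180). Also shown are those of the factor's inhibitor (Insig1, chr5:28071162-28071362) and of the gene with the smallest limma p among the 32 (Mvk, chr5:114444061-114444268). All lie on the plus strand, 5′ to 3′. Capitals mark the full sterol regulatory element in Hmgcs1 and, in Srebf2, only the form with its last base free. They also mark the E-box in Insig1 and the 5 CCAAT boxes, on either strand, in Mvk.
Hmgcs1: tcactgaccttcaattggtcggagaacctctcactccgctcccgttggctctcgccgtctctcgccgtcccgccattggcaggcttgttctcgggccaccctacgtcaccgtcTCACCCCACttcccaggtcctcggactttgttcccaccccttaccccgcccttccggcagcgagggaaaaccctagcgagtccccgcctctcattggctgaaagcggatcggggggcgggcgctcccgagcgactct
Srebf2: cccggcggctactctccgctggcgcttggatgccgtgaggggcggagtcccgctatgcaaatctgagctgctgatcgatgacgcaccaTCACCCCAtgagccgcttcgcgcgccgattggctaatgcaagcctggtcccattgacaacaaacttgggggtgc
Insig1: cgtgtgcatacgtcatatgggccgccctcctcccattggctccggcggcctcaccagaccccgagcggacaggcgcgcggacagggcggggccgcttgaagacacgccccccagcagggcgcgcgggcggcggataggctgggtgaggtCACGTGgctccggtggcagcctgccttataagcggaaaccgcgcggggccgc
Mvk: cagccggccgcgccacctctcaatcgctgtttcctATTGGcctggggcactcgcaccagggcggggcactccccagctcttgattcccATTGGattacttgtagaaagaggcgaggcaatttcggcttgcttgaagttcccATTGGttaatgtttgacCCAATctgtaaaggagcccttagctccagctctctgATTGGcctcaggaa

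None of the 32 genes changed between KO and WT by the test used. At an adjusted p below 0.05, 0 of 32 rose and 0 fell, against 1.01% of the 11768 genes tested in the same fit (limma on log2(FPKM + 1), Benjamini-Hochberg over all genes tested). By limma-voom on reads recovered from the values, 0 of 31 were called, against 7.28% of 11365 genes. At an unadjusted p below 0.05 there were 3 (Mvk, Ebp and Elovl6, all lower in KO), against 20.7% of all genes tested. The differences ran from −0.41 (Elovl6) to 0.27 (Fasn), with 15 above zero and 17 below. Their median was −0.012, against 0.025 over all genes tested, and their median size regardless of sign was 0.094 against 0.16. All 32 genes had a mean of at least 1 FPKM, so the filter on low values removed none of them.

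**Figure D1:**
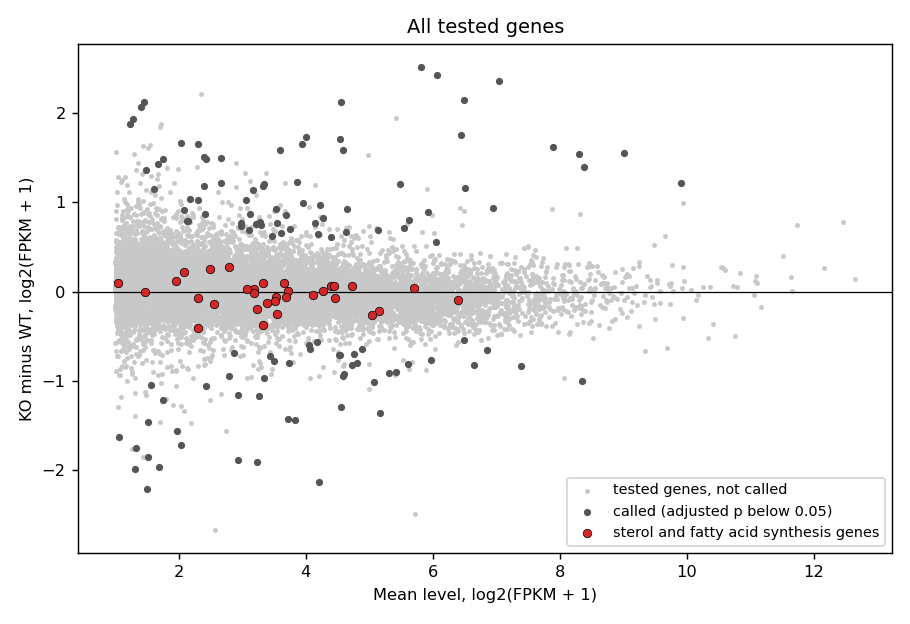
KO minus WT on the log2(FPKM + 1) scale against the mean level on the same scale, for all 11768 tested genes; red points are the 32 sterol and fatty acid synthesis genes and dark points the genes called at an adjusted p below 0.05. The red points lie between −0.41 and 0.27, and none of them is called.

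Missing the threshold does not show that the levels were alike, so the limits of each difference were read as well. They are folds of FPKM + 1, which are smaller than folds of FPKM for low genes. On this scale the 95% limits lay within a fold of 1.5 in either direction for 30 of the 32 genes, and within a fold of 2 for all 32. The exceptions at 1.5 were Mvk, whose lower limit was a KO to WT fold of 0.65 in FPKM + 1, and Elovl6, with 0.57. Over all genes tested the limits lay within 1.5 for 8162 of 11768. By limma-voom, which does not compress low levels, they lay within 1.5 for 26 of 31 genes and within 2 for 31 of 31. The exceptions at 1.5 there were Mvk, Elovl6, Fdps, Hsd17b7 and Fads2. These limits are not adjusted for the number of genes, and rest on a variance that limma borrows across the table, since a permutation of 2 against 2 libraries cannot give a two-sided p below 0.333.

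**Figure D2:**
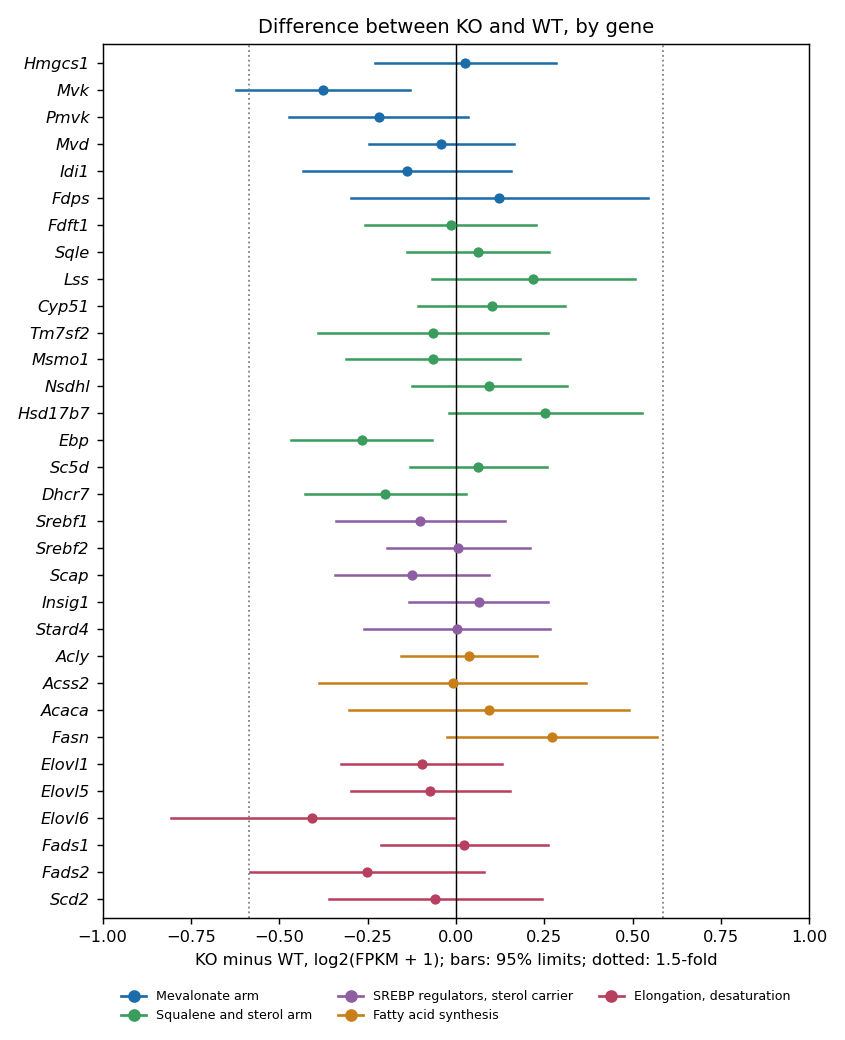
KO minus WT on the log2(FPKM + 1) scale for each gene, with 95% limits as bars and the 1.5-fold bounds as dotted lines, coloured by step of the pathway. All bars except those of Mvk and Elovl6 stay inside the dotted lines.

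The groups did not overlap for 18 of the 32 genes, 9 higher and 9 lower in KO, where such separation was found for 55.3% of all genes tested. For 17 genes the 2 WT libraries differed from each other by more than the group means did. The summed level of the 32 genes was 499 and 485 FPKM in WT and 479 and 465 in KO, so the mean of the sums differed by −4.05%.

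The genes lay at moderate levels, 28 of them above the median gene of the table. The highest was Elovl1, which makes very long saturated chains for sphingolipids, at 83.6 FPKM averaged over the 4 libraries, followed by Acly, which supplies cytosolic acetyl-CoA from citrate, at 51.2. Pmvk (34.4), Ebp (32.0), Sc5d (25.4), Elovl5 (20.9), Insig1 (20.8) and Sqle (19.95) came next, and the ranges of these last 3 genes over the 4 libraries overlapped. The lowest were Acaca (1.05) and Acss2 (1.75). FPKM divides by the annotated exonic length, which is 17074 bases for Acaca, 10787 for Lss and 10163 for Acss2 when all annotated exons are joined, against a median of 4839 over the 32 genes. Reads per library ran from 175 to 5060 for the 31 genes whose reads could be recovered, Fdft1 being the exception.

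**Figure D3:**
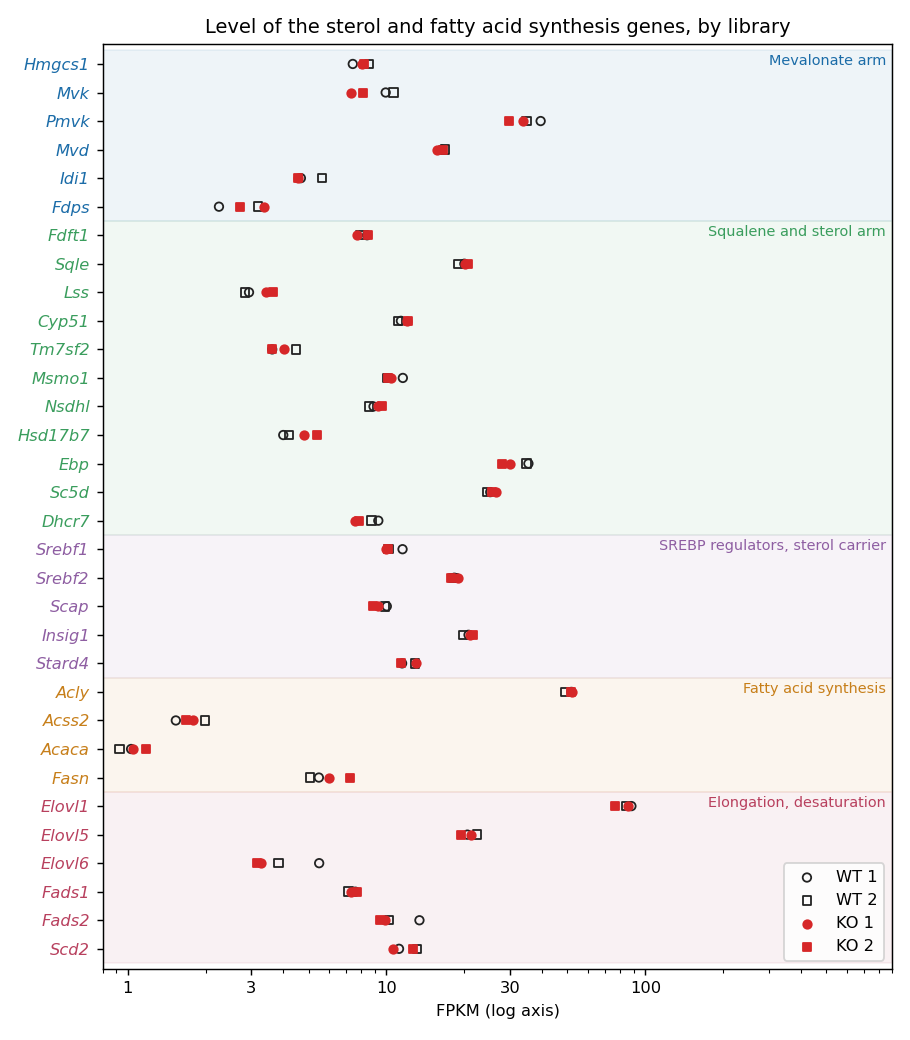
FPKM of each gene in the 4 libraries on a log axis, WT as open and KO as filled symbols, grouped by step of the pathway. Symbols of both genotypes lie close together for most genes, from about 1 FPKM (Acaca) to over 80 FPKM (Elovl1), and WT replicate 1 stands to the right of the other libraries for Elovl6 and Fads2.

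None of the 5 genes of the SREBP regulators and sterol carrier passed the test, with differences from −0.13 to 0.064. The groups did not overlap for 3 of them, 1 higher and 2 lower in KO, against 55.3% of all genes tested. Srebf2, the factor that mainly drives cholesterol enzymes, was at 18.3 and 18.1 FPKM in WT and 18.8 and 17.8 in KO, so the WT values lay inside the KO range. Its log2 difference was 0.0063 (SE 0.083, limma adjusted p = 0.973), with 95% limits at folds of 0.87 and 1.16 in FPKM + 1. Srebf1, the factor of fatty acid enzymes, was at 11.5 and 10.2 FPKM in WT and 9.97 and 10.1 in KO. Its KO libraries lay just below the lower WT library, with a difference of −0.10 (SE 0.098, adjusted p = 0.583). The table does not separate the Srebf1 isoforms, which start from different promoters. Scap, the escort of the SREBPs, was at 10.03 and 9.88 FPKM in WT and 9.24 and 8.85 in KO (difference −0.13, SE 0.089, adjusted p = 0.452), and 13.2% of its exonic bases are shared with a gene on the other strand. Insig1, itself a target of the SREBPs and so a readout of their activity, was at 20.7 and 19.8 FPKM in WT and 21.01 and 21.5 in KO. Both KO libraries were above both WT libraries by a small step (difference 0.064, SE 0.081, adjusted p = 0.680). Stard4, a cytosolic cholesterol carrier under SREBP control, was at 11.5 and 12.9 FPKM in WT and 13.1 and 11.4 in KO, and the groups overlapped fully (difference 0.0031, SE 0.11, adjusted p = 0.990).

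In the mevalonate arm no gene passed the test. For 3 of its 6 genes (Mvk, Pmvk and Idi1) the KO values were all lower than the WT values, and the other 3 overlapped. Over all genes tested the groups did not overlap for 55.3%, with 2925 of 11768 lower in KO. Mvk, which phosphorylates mevalonate (chromosome 5, 114444269 to 114460591, plus strand), was at 9.93 and 10.6 FPKM in WT and 7.27 and 8.12 in KO, from 490 and 472 against 358 and 370 reads. Both KO libraries were below both WT libraries, and the KO mean differed by −25.2%. The log2 difference was −0.38 (SE 0.10, limma adjusted p = 0.141; 0.0928 by limma-voom). It lay between −0.45 and −0.31 with any 1 library left out. Pmvk, the next kinase, was at 39.4 and 34.8 FPKM in WT and 33.8 and 29.7 in KO, again with no overlap (difference −0.22, SE 0.10, adjusted p = 0.288). The value was −0.13 without WT replicate 1 or without KO replicate 2.

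Hmgcs1, which commits acetyl units to the pathway and carries the full sterol regulatory element printed above, was at 7.41 and 8.57 FPKM in WT and 8.07 and 8.20 in KO. The KO values lay between the WT values (difference 0.027, SE 0.11, adjusted p = 0.902). A gene on the other strand shares 12.1% of its exonic bases. Mvd, the decarboxylase after the kinases, was at 16.4 and 16.8 FPKM in WT and 15.7 and 16.5 in KO, with overlap. Idi1, which isomerises isopentenyl diphosphate, was at 4.67 and 5.62 FPKM in WT and 4.57 and 4.57 in KO, a difference of −11.2% in the mean with no overlap (log2 difference −0.14, SE 0.12, limma adjusted p = 0.540). Fdps, which makes farnesyl diphosphate, was at 2.25 and 3.19 FPKM in WT and 3.37 and 2.71 in KO, and 26.7% of its exonic bases are shared with another gene model on the same strand, so its level is uncertain. The 6 genes of the arm summed to 80.0 and 79.6 FPKM in WT and 72.7 and 69.9 in KO, a difference of −10.7% in the mean, and Pmvk had the largest single drop in FPKM.

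The steps from squalene onwards went both ways. Of the 11 genes, 6 had both KO libraries above both WT libraries (Sqle, Lss, Cyp51, Nsdhl, Hsd17b7 and Sc5d), 2 had both below (Ebp and Dhcr7) and 3 overlapped (Fdft1, Tm7sf2 and Msmo1), with none called. Over all genes tested 55.3% did not overlap, with 3587 of 11768 higher and 2925 lower. Sqle, the oxygenase that is a rate-limiting step of the sterol part, was at 19.98 and 19.0 FPKM in WT and 20.1 and 20.7 in KO (difference 0.063, SE 0.082, adjusted p = 0.689). Lss, which closes the sterol ring, was at 2.94 and 2.84 FPKM in WT and 3.42 and 3.64 in KO (difference 0.22, SE 0.12, adjusted p = 0.334). Hsd17b7, a ketosteroid reductase that acts during the demethylation of the sterol ring, was at 3.99 and 4.20 FPKM in WT and 4.797 and 5.37 in KO. This mean was 24.0% higher in KO (difference 0.25, SE 0.11, adjusted p = 0.266).

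Ebp, the isomerase that shifts the ring double bond (chromosome X, 8185329 to 8193512, minus strand), was at 35.3 and 34.8 FPKM in WT and 29.96 and 28.0 in KO. All KO values were below all WT values, from 1275 reads in KO replicate 1 against 1506 in WT replicate 1. The KO mean differed by −17.3% (log2 difference −0.27, SE 0.081, limma adjusted p = 0.167), and the difference lay between −0.31 and −0.22 with any 1 library left out. Dhcr7, the last reductase before cholesterol, was at 9.30 and 8.73 FPKM in WT and 7.59 and 7.85 in KO (difference −0.20, SE 0.094, adjusted p = 0.282). The other demethylation enzymes differed less than Hsd17b7 did. Cyp51 was at 11.4 and 11.1 FPKM in WT and 12.1 and 12.2 in KO. Msmo1 was at 11.6 and 10.1 FPKM in WT and 10.4 and 10.2 in KO, and Nsdhl at 8.91 and 8.58 in WT and 9.25 and 9.57 in KO. Sc5d, the desaturase of the ring, was at 25.2 and 24.4 FPKM in WT and 26.4 and 25.5 in KO. Tm7sf2, a sterol reductase, was at 3.62 and 4.46 FPKM in WT and 4.01 and 3.60 in KO, and shares 12.1% of its exonic bases with a neighbour. Fdft1, which joins farnesyl units to squalene, was at 8.41 and 7.94 FPKM in WT and 7.72 and 8.46 in KO. It shares 18.3% of its exonic bases with Ctsb on the other strand, so its reads are uncertain. The 11 genes summed to 141 and 136 FPKM in WT and 136 and 135 in KO.

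Fatty acid synthesis was led by Acly, whose level was nearly the same in both genotypes. Acly was at 51.8 and 49.2 FPKM in WT and 52.0 and 51.7 in KO (difference 0.038, SE 0.079, adjusted p = 0.809). Fasn, the synthase that assembles palmitate (chromosome 11, 120805846 to 120824547, minus strand), was at 5.48 and 5.08 FPKM in WT and 5.98 and 7.24 in KO. Both KO libraries were above both WT libraries, and KO replicate 2 was the highest. The mean was 25.2% higher in KO (difference 0.27, SE 0.12, limma adjusted p = 0.267), and the difference fell to 0.15 without KO replicate 2. Acaca, the carboxylase that makes malonyl-CoA, was at 1.03 and 0.932 FPKM in WT and 1.05 and 1.18 in KO (difference 0.093, SE 0.16, adjusted p = 0.768). Acss2, which makes acetyl-CoA from acetate, was at 1.54 and 1.99 FPKM in WT and 1.79 and 1.68 in KO, with the KO values between the WT values.

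Among the elongases and desaturases, Elovl6 and Fads2 were lower in KO with no overlap, though without passing the test, and the size of both differences depended on WT replicate 1. Elovl6, which extends palmitate to stearate (chromosome 3, 129532355 to 129638495, plus strand), was at 5.49 and 3.82 FPKM in WT and 3.28 and 3.17 in KO. Its WT libraries differed from each other by more than the lower of them differed from KO. The log2 difference was −0.41 (SE 0.16, limma adjusted p = 0.238), and −0.19 without WT replicate 1. Fads2, the delta-6 desaturase that starts the synthesis of long polyunsaturated fatty acids, was at 13.4 and 10.2 FPKM in WT and 9.89 and 9.46 in KO (difference −0.25, SE 0.14, adjusted p = 0.336). Without WT replicate 1 its value was −0.071. Its neighbour Fads1, the delta-5 desaturase, was at 7.58 and 7.13 FPKM in WT and 7.29 and 7.70 in KO, with overlap. Elovl1 was at 88.3 and 84.4 FPKM in WT and 85.7 and 76.0 in KO, and Elovl5, which extends polyunsaturated chains, at 20.5 and 22.3 in WT and 21.2 and 19.4 in KO. Scd2, a stearoyl-CoA desaturase that makes monounsaturated fatty acids, was at 11.2 and 13.1 FPKM in WT and 10.6 and 12.6 in KO (difference −0.058, SE 0.12, adjusted p = 0.815). Scd genes are close paralogs, so some of its reads may not be assigned with certainty.

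Other genes of the same pathways were read from 3 further lists. In a list of 16 sterol synthesis and SREBP processing genes, 14 were tested and 0 were called, against 1.01% of all genes tested. At an unadjusted limma p below 0.05 there was 1 of the 14, against 20.7% of all genes tested. Acat2, the thiolase at the head of the pathway, was at 32.5 and 31.2 FPKM in WT and 29.2 and 25.3 in KO (adjusted p = 0.262). Ggps1, which makes the geranylgeranyl anchor, was at 10.9 and 11.3 FPKM in WT and 10.02 and 9.25 in KO (adjusted p = 0.303). In a list of 31 other fatty acid genes, 19 were tested and 0 were called by limma. At an unadjusted p below 0.05 there were 7 of the 19 (3 higher and 4 lower in KO), against 20.7% of all genes tested. Of 18 genes in the limma-voom fit 1 was called higher and 1 lower, against 7.28% of all genes in that fit. The lower one was Hsd17b12, the reductase of the elongation cycle, at 39.6 and 33.5 FPKM in WT and 28.3 and 24.6 in KO (difference −0.45, SE 0.12, adjusted p = 0.135; 0.0301 by limma-voom). The higher one was Dgat1, which makes triglycerides, at 61.6 and 51.6 FPKM in WT and 72.8 and 73.0 in KO (difference 0.36, SE 0.10, adjusted p = 0.157; 0.0430 by limma-voom). Its difference was 0.24 without WT replicate 2 and 0.49 without WT replicate 1. Hacd3, the dehydratase of the same elongation cycle, was at 11.3 and 11.9 FPKM in WT and 9.58 and 8.84 in KO (adjusted p = 0.170).

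Among these further genes, the single call by limma was in cholesterol storage. Among 23 genes of cholesterol transport and oxysterol metabolism 16 were tested, 1 fell and 0 rose, against 1.01% of all genes tested. The median difference of the 16 was 0.016. At an unadjusted limma p below 0.05, 1 was higher and 3 were lower in KO, 25% of the 16, against 20.7% of all genes tested. Of 15 genes in the limma-voom fit 3 were called lower and 0 higher, against 7.28% of all genes in that fit. Soat1, which esterifies cholesterol for storage, was at 20.6 and 20.4 FPKM in WT and 13.9 and 13.2 in KO. The libraries of a genotype lay close together and the genotypes far apart, and the KO mean differed by −33.8% (log2 difference −0.56, SE 0.083, limma adjusted p = 0.0497). The call ended under 8 of the 9 other settings tried, although the difference stayed between −0.53 and −0.60, and limma-voom called it (adjusted p = 0.00237). Lipa, the lysosomal acid lipase that frees cholesterol from its esters, was at 12.7 and 12.3 FPKM in WT and 8.67 and 9.18 in KO (difference −0.45, SE 0.089, adjusted p = 0.0904; 0.0133 by limma-voom). Scarb1, a lipoprotein receptor, was at 16.0 and 13.3 FPKM in WT and 11.1 and 10.2 in KO (difference −0.42, SE 0.11, adjusted p = 0.144; 0.0271 by limma-voom).

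**Figure D4:**
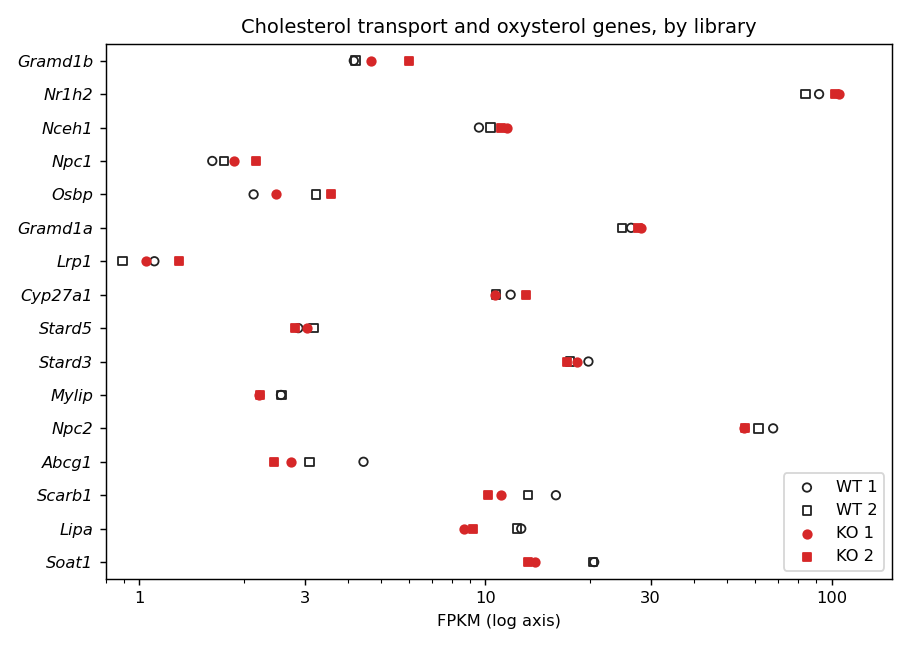
FPKM of the 16 tested genes of cholesterol transport and oxysterol metabolism in the 4 libraries on a log axis, ordered from the most positive to the most negative KO minus WT difference. The last row is Soat1, with WT at 20.6 and 20.4 FPKM and KO at 13.9 and 13.2.

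Some markers of marrow cell types moved between the genotypes. Whether the leukaemia cells themselves or other cells carried these transcripts was not tested. In bulk RNA fewer cells of a type and less RNA per cell cannot be told apart. Of all genes tested, 1.01% were called by limma. Of 10 macrophage markers 8 were tested and 4 fell (C1qa, C1qb, C1qc and Lgmn), and their summed level was 129 to 148 FPKM in WT and 72.5 in each KO library. Macrophages express Soat1, Lipa and Scarb1, and the part of these cells in those differences was not tested. Of 10 mature neutrophil markers 7 rose, with sums of 1266 to 1292 FPKM in WT and 2927 to 3511 in KO. S100a8 and S100a9 made up most of these sums. Ltf and Mmp8 overlapped between the groups, and Cxcr2 was at 2.08 and 2.27 FPKM in WT and 1.99 and 1.91 in KO. Of 10 erythroid markers 7 were tested and 5 rose, with sums of 90.7 to 99.1 FPKM in WT and 430 to 523 in KO. Globin transcripts made up most of these sums. Klf1 of the same list went the other way, at 2.23 and 0.943 FPKM in WT and 0.495 and 0.536 in KO (limma adjusted p = 0.207). Of the B cell markers 5 were tested and 3 fell, with sums of 216 to 225 FPKM in WT and 120 to 137 in KO. Immunoglobulin transcripts made up most of these sums, and Cd79a, part of the B cell receptor, went the other way, at 1.79 and 1.82 FPKM in WT and 3.09 and 3.71 in KO (limma adjusted p = 0.101). Of 8 T and NK cell markers 4 were tested and 0 passed the test. Of the T cell receptor genes, Cd3d was at 1.94 and 1.69 FPKM in WT and 0.778 and 0.841 in KO (limma adjusted p = 0.124). Trbc1 was at 3.69 and 3.30 FPKM in WT and 1.30 and 1.72 in KO (adjusted p = 0.0696). Nkg7, a granule protein gene of cytotoxic cells, was at 282 and 341 FPKM in WT and 426 and 356 in KO (adjusted p = 0.264). Of the granulocyte-monocyte precursor markers 6 were tested and 0 passed. Mpo, the granule peroxidase, was at 399 and 309 FPKM in WT and 192 and 166 in KO (limma adjusted p = 0.0532; 0.000329 by limma-voom). It was 1 of 2 with a difference below zero, and the other 4 were above, with a median log2 difference of 0.059 over the 6. Cebpe was at 192 and 177 FPKM in WT and 245 and 221 in KO (limma adjusted p = 0.166). No listed marker in the table was at 0 in every library. Whether such shifts raise or lower the synthesis genes was not tested.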

How the data were processed

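The deposited data are 1 table with 16442 genes and 4 libraries, 2 WT and 2 KO. HISAT2 2.1.0, featureCounts, CASAVA and DESeq2, and the build GRCm38, are named per the submitters' processing notes. How each was used, the annotation and the strand setting are not stated there. The deposited values behave as FPKM with 1 added: the lowest value is 1, and the rest after subtracting 1, times the exonic length in GENCODE M21 (16003 genes matched by symbol), are whole reads (tolerance 0.05) in 99.0% to 99.2% of those at 30 reads or fewer. The steps give 16590830 to 18451251 assigned reads per library, so 3 reads on 2 kb of exon amount to 0.0813 to 0.0904 FPKM, counting error only. 0 columns were left unused.

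KO and WT were compared with limma 3.58.1 (R 4.3.3, trend) on log2(FPKM + 1), which understates changes of low genes, over 11768 genes whose mean reached 1 FPKM, two-sided, with Benjamini-Hochberg adjustment over all of them and a threshold of 0.05. The fit had 2 residual and 4.10 prior degrees of freedom. Alternatives were a pseudocount of 0.1, no filter, libraries shifted to 1 median, limma-voom on recovered reads, each library left out, and the replicate number as a block.

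All members were described. Given in full were the 10 with the smallest p and the regulators and main enzymes of each arm. Of 3 further pathway lists, called genes and the 3 smallest p were to be named, of which 1 sterol gene is not reported here. The members and lists were chosen with earlier results of these data known. Any other gene was picked with its values in view. Exonic overlaps were counted in GENCODE M21. Promoter windows were read from RefSeq (GRCm38.p6).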

Additional observations from a re-analysis of the deposited data

How the results depend on the processing

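None of the 32 synthesis genes was called under any of the 9 alternatives, where the lowest adjusted p was 0.0841 (Elovl6, limma-voom). The count at an unadjusted p below 0.05 ran from 1 to 6. The members' median of −0.012 became −0.047 with libraries shifted to 1 median, and with 1 library left out spanned −0.060 (WT replicate 1 out) to 0.00092 (WT replicate 2 out). Of 287 member values under alternatives 267 kept their direction and 20, from 10 genes, reversed; the cause was not tested. Leaving out 1 library, differences ran from −0.067 to 0.12 (Hmgcs1), −0.060 to 0.31 (Fdps), −0.074 to 0.044 (Fdft1), −0.19 to 0.055 (Tm7sf2), −0.16 to 0.026 (Msmo1), −0.034 to 0.047 (Srebf2), −0.086 to 0.093 (Stard4), −0.13 to 0.11 (Acss2), −0.015 to 0.063 (Fads1) and −0.17 to 0.057 (Scd2). Shifted to 1 median, Hmgcs1 was at −0.0085, Srebf2 at −0.029, Stard4 at −0.032 and Fads1 at −0.011, and by limma-voom Acss2 was at 0.0018. The 1 call among the further pathway genes (Soat1) became 5 by limma-voom and 0 with each library left out, a pseudocount of 0.1, no filter, a shared median or the replicate block. With the replicate block 0 members were called. The numbers are not known to pair the libraries (correlation of deviations 0.0090 for replicate 1). A library left out leaves 1 group with a single library, taken to vary like the other group. Fdps had the fewest reads, 175 in WT replicate 1, and so the least precise count.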

Other observations

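A pair of further genes was looked at after the values of the pathway had been seen. Mmab, a cobalamin enzyme gene that starts 209 bases from Mvk on the opposite strand and shares the promoter printed for it, was at 5.08 and 4.91 FPKM in WT and 4.60 and 4.17 in KO, below WT in both KO libraries (log2 difference −0.16, SE 0.11, limma adjusted p = 0.444). Tmem97, a membrane protein gene under SREBP control, was at 69.3 and 65.6 FPKM in WT and 58.6 and 47.5 in KO (log2 difference −0.35, SE 0.12, limma adjusted p = 0.189).

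Mlycd and Abcg1 were picked with their values in view, for a highest value in WT replicate 1. How often each library was highest over all genes was not counted. Mlycd, which breaks down malonyl-CoA, was at 16.0 FPKM there and at 8.25 to 9.61 in the other 3 libraries. The cholesterol exporter Abcg1 was at 4.44 FPKM there, 3.10 in WT replicate 2 and 2.45 to 2.74 in KO.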
